A study of Mus musculus with 9 samples.

Results

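The genes described here were 10 growth genes of immature olfactory sensory neurons (OSNs) in the main olfactory epithelium (MOE), where the nose detects odors: Gap43, Gng8, Dpysl3, Dpysl5, Elavl3, Basp1, Stmn1, Stmn2, Crmp1 and Tubb3. They were taken by symbol from a table of raw read counts with 24421 gene rows, and all 10 had a row. RNA-seq was performed on whole MOE of 9 mice, which the labels give as C57BL/6 and of postnatal day 14, and 3 mice each were wild type, heterozygous or homozygous for a germline deletion of TAAR enhancer 1, a noncoding element beside the genes of the trace amine-associated receptors. The deletion came from a single CRISPR-Cas9 mouse line, is carried by every cell of the body, and was compared among littermates, and the labels name no further allele or treatment in any group. The reporting summary of the study gives mixed strain backgrounds for its mouse lines and an older age for mice of this line than the labels do, and neither conflict could be settled from the data. The Taar genes and the deleted element lie on chromosome 10, which holds none of the 10 growth genes. Whether the genotypes differ in this neuronal stage is the question that the pairwise comparisons address.

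OSNs of the MOE are replaced throughout life. New ones arise from dividing basal progenitors, pass through an immature stage in which they extend an axon to the olfactory bulb, and then switch on the proteins of odor detection. During the immature stage they make a characteristic set of proteins of the growth cone, the motile tip of the axon, and of the microtubule and membrane cytoskeleton behind it. Gap43 is the classical marker of this stage in the MOE, and olfactory marker protein, encoded by Omp, is that of the mature stage.

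Levels are given as CPM, the counts of a gene scaled to a common library size by the trimmed mean of M-values. Library sizes in genes ran from 24583906 to 32631951 reads, so that 3 reads corresponded to 0.0916 to 0.122 CPM, and this limit covers counting error only. Every growth gene had at least 1408 reads in every library and passed the filter on low counts, together with 20213 genes in all. In each library the 10 genes together took between 0.331% and 0.377% of the counts. Reads of Taar2 to Taar5, which lie beside the enhancer, numbered 227 to 337 per wild-type library, 158 to 176 per heterozygous library and 1 to 3 per homozygous library, in the order of the genotype labels. Reads of receptors of the vomeronasal organ, the pheromone-sensing organ beside the MOE, were raised in 3 libraries, with a sum over these receptors of 67.3 CPM for replicate 1 of the heterozygous mice and of 119.8 and 69.7 CPM for replicates 2 and 3 of the homozygous mice. The other 6 libraries lay between 14.5 and 17.3 CPM. Values of the growth genes without these 3 libraries are therefore given for each pair of genotypes, as medians and for some single genes. For the other gene lists such values are not given, and none of these 3 libraries is from a wild-type mouse. No 2 libraries within a genotype were close enough to be 1 library deposited again (chi-square divided by its degrees of freedom 4.34 or more), and each stands for 1 mouse. In such bulk tissue, several sources of a difference cannot be told apart. They are the number of immature neurons, the RNA of a gene per neuron, and the share or RNA of other cells.

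The tissue label was checked against markers of OSNs. Omp stood at 3045.1 to 3549.5 CPM over the 9 libraries, and Neurod1, a transcription factor of late neuronal progenitors, at 54.2 to 62.9 CPM. Both the mature neurons and the lineage that leads to them were therefore read in every library. Markers of neurons of the olfactory bulb, a list of 8 genes, summed to 32.7 to 39.9 CPM, while the 10 growth genes summed to between 3312.3 and 3764.0 CPM. Most of the bulb sum was Gad2, at 20.3 to 25.6 CPM. The sums do not give the share of growth gene reads that came from bulb tissue.

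The region just upstream of the transcription start was available from RefSeq (GRCm38.p6) for 6 of the 10 genes, namely Gng8, Dpysl5, Elavl3, Basp1, Crmp1 and Tubb3. The 250 bases before the start are printed for Basp1 and Elavl3, the genes with the smallest p-values between homozygous and wild-type mice, and for Gng8, whose levels followed those of the other growth genes least. Basp1 is read from chr15:25413765-25414014 on the minus strand, Elavl3 from chr9:22052024-22052273 on the minus strand and Gng8 from chr7:16891536-16891785 on the plus strand. Each is written 5′ to 3′ along the strand of its gene, and capitals mark matches to the 4 motifs named in the next paragraph.

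Basp1: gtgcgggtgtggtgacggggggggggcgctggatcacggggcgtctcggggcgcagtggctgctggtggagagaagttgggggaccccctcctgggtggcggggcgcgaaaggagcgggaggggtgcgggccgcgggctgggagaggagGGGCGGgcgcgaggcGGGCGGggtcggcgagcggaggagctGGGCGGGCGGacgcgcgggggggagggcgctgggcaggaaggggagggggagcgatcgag

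Elavl3: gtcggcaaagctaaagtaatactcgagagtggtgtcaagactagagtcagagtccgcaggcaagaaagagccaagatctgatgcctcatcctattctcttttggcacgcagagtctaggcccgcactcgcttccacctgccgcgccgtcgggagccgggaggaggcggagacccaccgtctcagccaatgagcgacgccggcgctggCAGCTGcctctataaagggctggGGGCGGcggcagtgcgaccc

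Gng8: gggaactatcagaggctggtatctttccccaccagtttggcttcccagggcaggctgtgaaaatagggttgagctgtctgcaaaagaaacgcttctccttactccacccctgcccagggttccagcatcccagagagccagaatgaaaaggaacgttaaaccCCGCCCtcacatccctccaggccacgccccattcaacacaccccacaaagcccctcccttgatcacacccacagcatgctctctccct

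The motifs were searched on both strands in the same 250 bases of 14948 tested genes with such a window. GGGCGG, the core of the GC box, which reads CCGCCC where it lies on the opposite strand, was found in 6 of the 6 growth genes and in 48% of all these promoters. The E-box CAGCTG, read by bHLH factors of neurogenesis, was found in Elavl3 and in no other of the 6, and in 12.2% of all promoters. The palindrome of the early B-cell factors of the olfactory lineage, here TCCC, then any 2 bases, then GGGA, was found only in Dpysl5 among the 6 and in 0.89% of promoters, and TAATTA, a homeodomain motif, in 0 of the 6 and in 3.83% of promoters. None of these motifs contains another, although neighboring GGGCGG matches can overlap, as in Basp1. Basp1 and Crmp1 had the most CG dinucleotides, 30 each, more than in 91.7% of promoters, and Gng8 had the fewest, 4, against a median of 12 over all promoters. The share of G and C was 78.8% in Basp1, 61.6% in Elavl3 and 56% in Gng8, with a median of 57.2% over all promoters. For Crmp1 and Tubb3 the RefSeq start lies downstream of the start of the GENCODE gene model, so that their windows also hold transcribed bases of that model, and they are not printed. A match is a run of letters and not a shown site of binding.

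The growth genes were compared with one another as CPM per kilobase, using the union of the exons of each gene in the GENCODE M21 annotation of GRCm38. Tubb3 (chr8:123411424-123422015), the neuron-specific beta tubulin of microtubules, stood highest at 249.8 CPM per kilobase ± 15.7 (SD, n = 9). Gap43 (chr16:42248442-42340651), a membrane-bound protein of the growth cone that binds calmodulin, followed at 182.0 CPM per kilobase ± 9.44, and Dpysl3 (chromosome 18, 43320984 to 43438286), a collapsin response mediator protein that acts on actin and microtubules in the growing axon, at 124.2 CPM per kilobase ± 4.42. The ranges of these 3 genes over the 9 libraries did not overlap with each other or with the next gene. Elavl3 (chr9:22015005-22052023), a neuronal RNA-binding protein that controls splicing and stability of messages, stood at 96.4 CPM per kilobase ± 5.02. Stmn1 (chr4:134468320-134473843) and Stmn2 (chr3:8509360-8561606), stathmins that bind tubulin and destabilize microtubules, stood at 93.8 ± 4.57 and 83.9 ± 4.43 CPM per kilobase. Elavl3 overlapped with Stmn1 in range, and so did Stmn1 with Stmn2, so that the order of these neighbors was not resolved.

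The lower part of the order held the remaining genes. Dpysl5 (chr5:30711564-30799375), a further collapsin response mediator, and Basp1 (chr15:25363277-25413764), a myristoylated relative in function of Gap43 at the inner face of the growth cone membrane, stood at 49.8 ± 3.03 and 49.7 ± 4.32 CPM per kilobase and overlapped in range. Gng8 (chr7:16891786-16895436), a G protein gamma subunit of immature olfactory and of vomeronasal neurons, stood at 39.6 CPM per kilobase ± 2.69. Crmp1 (chr5:37241940-37292133), the collapsin response mediator protein with a role in semaphorin signaling, stood lowest at 18.8 CPM per kilobase ± 1.36, apart from all others. With the longest single transcript as the length, Tubb3 and Gap43 stayed at the top and Crmp1 at the bottom, but Stmn1 moved up to 170.1 CPM per kilobase and Stmn2 to 137.6, above Elavl3 at 132.4. Stmn1 thereby passed Dpysl3 at 149.8, and Gng8 at 66.3 passed Basp1 at 53.9 CPM per kilobase. The order between Gap43 and Crmp1 therefore depended on the length used. Of the exons of Elavl3, 3.72% overlap the gene model Gm49318 on the same strand, and 12.8% of the stretches of 100 bases in Stmn1 also occur in Gm11223, so that some reads of these genes could be assigned elsewhere. The other 8 genes shared no such stretch and no exon.

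**Figure D1:**
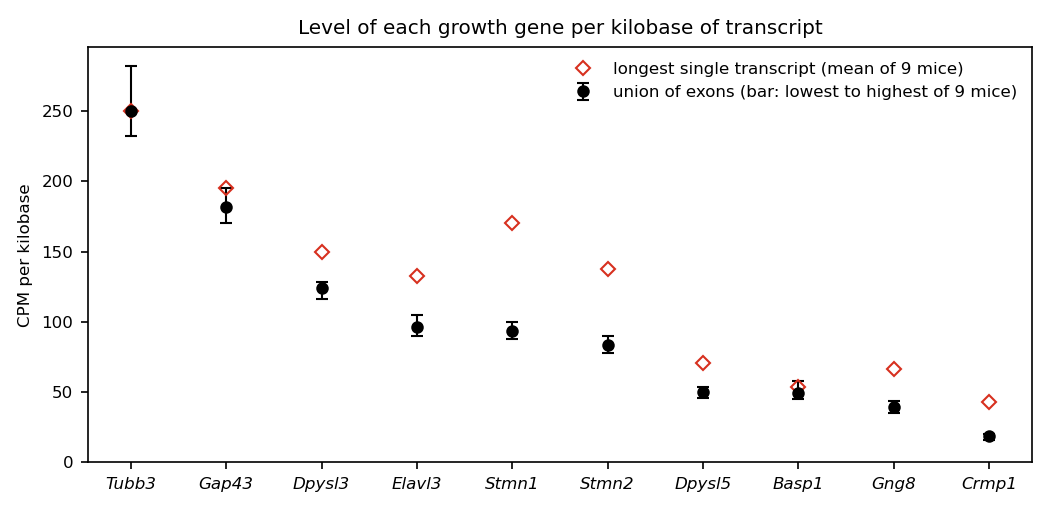
Level of each growth gene in CPM per kilobase (vertical axis), with genes in order of level (horizontal axis). Filled points are means over 9 mice with the union of exons as length and bars run from the lowest to the highest mouse, and open diamonds are means with the longest single transcript as length. Tubb3 lies highest at 249.8 and Crmp1 lowest at 18.8 CPM per kilobase, and the diamonds of Stmn1 and Stmn2 lie well above their filled points.

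Homozygous mice were first compared with wild-type mice. Most growth genes had a slightly higher mean level in homozygous mice, and none passed the adjusted threshold of the main test. Of the 10 genes, 9 had a log2 fold change above 0, against 49.8% of all genes tested, and the median of the 10 was 0.10, against -0.00057 over all genes. No growth gene passed an adjusted p of 0.05 in the quasi-likelihood test of edgeR, which called 0.0495% of the 20213 genes in this comparison. At an unadjusted p under 0.05, 3 growth genes were higher and 0 lower, against 4.55% and 4.71% of all genes. In 4 growth genes every homozygous library lay above every wild-type library, against 7.46% of all genes, and in 0 every one lay below, against 7.95%. DESeq2 with default settings called 2 of the 10, Basp1 and Elavl3, against 0.788% of the genes to which it gave an adjusted p. Without the 3 libraries high in vomeronasal receptors, which leaves a single homozygous mouse against 3 wild-type mice, 9 of the 10 were above 0, with a median of 0.13. That mouse has no replicate, and these values carry no estimate of its own spread.

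Basp1 differed most between these genotypes. Values of single mice are given here in the order of replicates 1, 2 and 3. Basp1 held 99.3, 91.4 and 91.5 CPM in the 3 wild-type mice, 95.3, 93.1 and 97.9 CPM in the heterozygous mice and 107.1, 107.0 and 116.8 CPM in the homozygous mice. All 3 homozygous mice lay above all 6 others, with a mean of 110.3 CPM ± 5.62 (SD, n = 3) against 94.0 CPM ± 4.51 in wild-type mice. The fold was 1.17, with a 95% interval from 1.09 to 1.26, and the log2 fold change was 0.23 ± 0.049 (SE). Its adjusted p was 0.220 in edgeR and 0.0154 in DESeq2, so that the call depended on the tool. By p-value Basp1 ranked 27 of 20213 genes. Without the 3 libraries high in vomeronasal receptors the log2 fold change was 0.19, with 1 homozygous mouse left and an adjusted p of 0.925 in edgeR.

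Elavl3 was the other gene with a call in DESeq2. Elavl3 held 647.0, 634.8 and 618.6 CPM in the 3 wild-type mice, 661.4, 631.3 and 672.0 CPM in the heterozygous mice and 699.5, 688.8 and 721.9 CPM in the homozygous mice. The homozygous mice again lay above all 6 others. Their mean was 703.4 CPM ± 16.9 (SD, n = 3) against 633.5 CPM ± 14.2 in wild-type mice, a log2 fold change of 0.15 ± 0.041 (SE) with an adjusted p of 0.332 in edgeR and 0.0234 in DESeq2. Without the 3 libraries high in vomeronasal receptors the log2 fold change was 0.14, with 1 homozygous mouse left.

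The collapsin response mediators differed in how well they separated the genotypes. Crmp1 held 134.2, 124.2 and 114.3 CPM in the 3 wild-type mice, 133.8, 123.6 and 135.2 CPM in the heterozygous mice and 142.7, 140.2 and 141.7 CPM in the homozygous mice. For Crmp1 the 3 homozygous mice lay above all others and close together, while the wild-type mice were spread over a wider range. The log2 fold change was 0.19 ± 0.056 (SE), a fold of 1.14, with an adjusted p of 0.345 in edgeR and 0.0866 in DESeq2, past the threshold in neither. Dpysl3 held 830.2, 815.5 and 777.3 CPM in the 3 wild-type mice, 834.3, 766.8 and 849.0 CPM in the heterozygous mice and 842.9, 837.0 and 833.4 CPM in the homozygous mice. Here every homozygous mouse lay just above the highest wild-type mouse. The log2 fold change between the groups was 0.053 ± 0.045 (SE; adjusted p = 0.775, edgeR), about the size of its SE, and it was 0.030 without wild-type replicate 3. Dpysl5 held 376.6, 346.1 and 336.3 CPM in the 3 wild-type mice, 377.7, 338.2 and 385.7 CPM in the heterozygous mice and 393.7, 364.7 and 389.9 CPM in the homozygous mice. Dpysl5 overlapped between genotypes, since wild-type replicate 1 lay above homozygous replicate 2, and its log2 fold change was 0.12 ± 0.057 (SE; adjusted p = 0.563, edgeR).

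Among the genes of the growth cone membrane and of G protein signaling, Gap43 was near the median of the 10 genes and Gng8 stood apart from them. Gap43 held 263.5, 271.6 and 280.2 CPM in the 3 wild-type mice, 259.7, 261.0 and 286.0 CPM in the heterozygous mice and 297.7, 279.2 and 296.0 CPM in the homozygous mice. The wild-type and homozygous mice overlapped by a narrow margin, and the log2 fold change was 0.098 ± 0.049 (SE; adjusted p = 0.574, edgeR). Gng8 held 58.1, 63.9 and 61.7 CPM in the 3 wild-type mice, 56.2, 53.2 and 66.8 CPM in the heterozygous mice and 59.1, 62.2 and 61.3 CPM in the homozygous mice. Gng8 alone had a value below 0, a log2 fold change of -0.0097 ± 0.070 (SE; adjusted p = 0.985, edgeR), and its 3 genotypes overlapped fully. The interval of its fold ran from 0.896 to 1.10. Because Gng8 is also made by vomeronasal neurons, its levels were set beside the vomeronasal receptors, and it lay at 56.2 to 62.2 CPM in the 3 libraries high in them and at 53.2 to 66.8 CPM in the other 6.

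The microtubule genes overlapped between wild-type and homozygous mice. Tubb3 held 467.4, 465.0 and 436.4 CPM in the 3 wild-type mice, 438.9, 433.9 and 482.9 CPM in the heterozygous mice and 480.4, 467.3 and 527.4 CPM in the homozygous mice. Homozygous replicate 3 lay above all others, and homozygous replicate 2 lay at the level of wild-type replicate 1, so that the log2 fold change of 0.11 ± 0.055 (SE; adjusted p = 0.584, edgeR) did not separate the genotypes, and without homozygous replicate 3 it was 0.054. Stmn1 held 171.4, 183.5 and 172.6 CPM in the 3 wild-type mice, 168.9, 173.6 and 189.2 CPM in the heterozygous mice and 192.1, 188.6 and 182.4 CPM in the homozygous mice. Stmn2 held 457.7, 466.6 and 467.7 CPM in the 3 wild-type mice, 435.3, 437.7 and 500.6 CPM in the heterozygous mice and 466.9, 502.1 and 493.3 CPM in the homozygous mice. Both stathmins had most homozygous mice in the upper part of their range, with log2 fold changes of 0.094 ± 0.051 for Stmn1 (SE; adjusted p = 0.611, edgeR) and 0.071 ± 0.053 for Stmn2 (SE; adjusted p = 0.735, edgeR). For Stmn2 the value was 0.0081 without the 3 libraries high in vomeronasal receptors, where 1 homozygous mouse remains. Over all 10 genes the 95% intervals of the fold lay between 0.896 and 1.26, so that no growth gene had an interval that reached a larger difference between homozygous and wild-type mice.

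**Figure D2:**
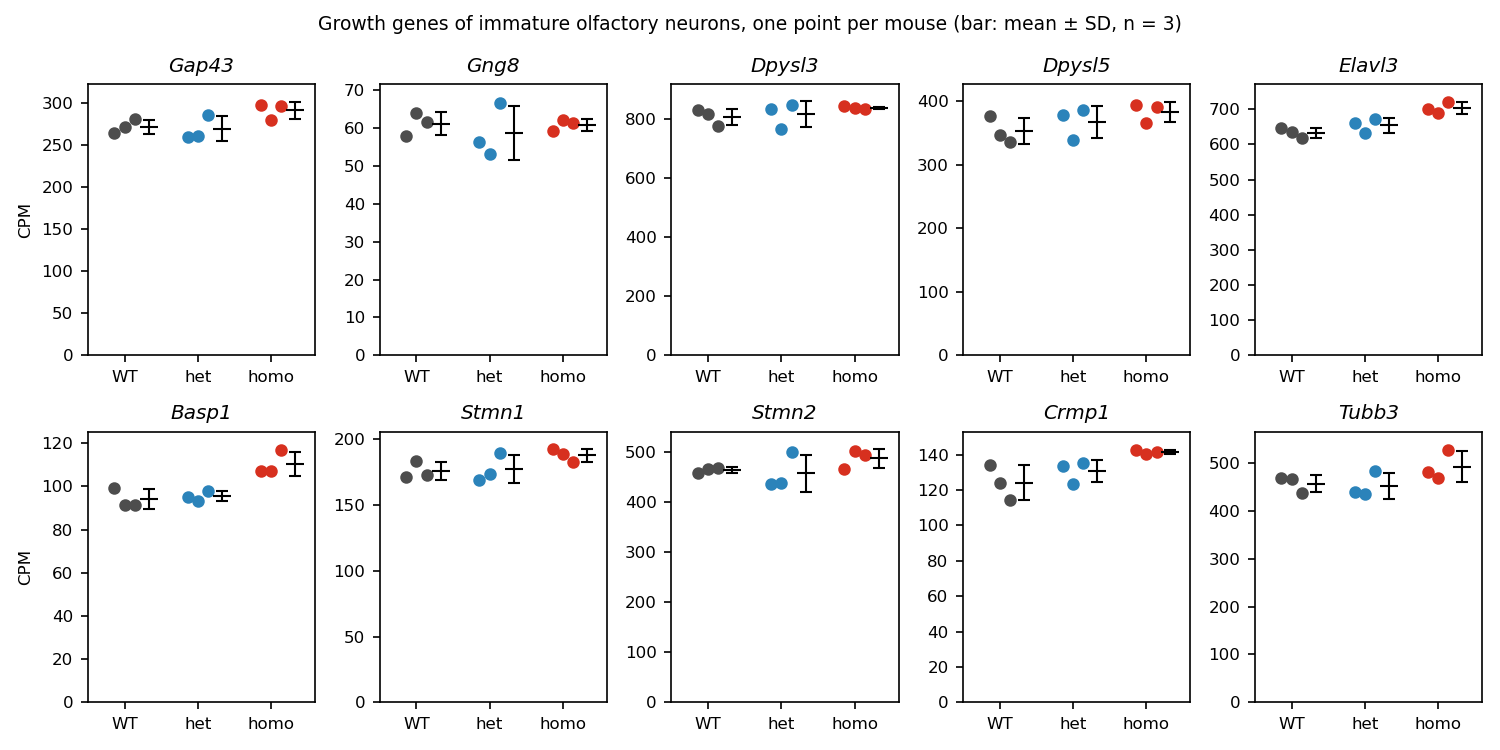
CPM (vertical axis, from 0) of each growth gene in wild-type (WT), heterozygous (het) and homozygous (homo) mice, with 1 point per mouse and the mean ± SD (n = 3) as a bar beside the points. The homozygous points of Basp1 (107.0 to 116.8 CPM) and Elavl3 (688.8 to 721.9 CPM) lie above all points of the other genotypes, and those of Gng8 lie within them.

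The second comparison set homozygous against heterozygous mice, and it shares the homozygous libraries with the first. All 10 growth genes had a log2 fold change above 0, with a median of 0.097, against -0.0017 over all genes and 49.5% of genes above 0. edgeR called 0 of the 10, against 0.114% of all genes, and 4 were higher and 0 lower at an unadjusted p under 0.05, against 4.22% and 6.2% of all genes. DESeq2 called 1, Basp1, against 1.21% of the genes it gave an adjusted p. Basp1, Elavl3 and Crmp1 did not overlap between these genotypes and were higher in homozygous mice, against 6.41% of all genes, and 0 were lower without overlap, against 7.67%. For Basp1 the log2 fold change was 0.21 ± 0.049 (SE), with an adjusted p of 0.144 in edgeR and 0.0179 in DESeq2. For Elavl3 it was 0.10 ± 0.041 (SE; adjusted p = 0.405, edgeR) and for Crmp1 0.11 ± 0.056 (SE; adjusted p = 0.508, edgeR). Gap43 (0.11, adjusted p = 0.442, edgeR) and Tubb3 (0.12, adjusted p = 0.463, edgeR) had an unadjusted p under 0.05, as Basp1 and Elavl3 did and Crmp1 did not, but heterozygous replicate 3 lay among the homozygous mice for both. The value of Tubb3 was 0.069 without homozygous replicate 3, and that of Crmp1 was 0.074 without heterozygous replicate 2. The size depended on single heterozygous libraries, in either direction. Without heterozygous replicate 3 the median log2 fold change of the 10 genes was 0.15. Without heterozygous replicate 2 it was 0.071, with 8 of the 10 above 0. Without the 3 libraries high in vomeronasal receptors, which leaves 1 homozygous mouse against 2 heterozygous mice, 8 of the 10 were above 0 with a median of 0.091, Gng8 and Stmn2 being at -0.023 and -0.0082.

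The third comparison, heterozygous against wild-type mice, shares its libraries with both others. The growth genes did not move one way. Of the 10, 6 had a log2 fold change above 0 and 4 below, against 51.5% of all genes above 0, with a median of 0.014 against 0.0033 over all genes. edgeR called 0 of the 10, against 0.00495% of all genes, none had an unadjusted p under 0.05, against 3.25% of all genes in either direction, and DESeq2 called 0, against 0.0136% of the genes it gave an adjusted p. No growth gene separated the genotypes, against 4.36% of all genes without overlap and higher and 4.32% without overlap and lower. The values ran from -0.060 for Gng8 to 0.075 for Crmp1, and all intervals of the fold lay between 0.865 and 1.14. The heterozygous mice themselves were spread: replicate 3 had 9 of the 10 growth genes above their mean over the 9 libraries and replicate 2 had 0. Accordingly the number of growth genes above 0 ran from 3 without heterozygous replicate 3 to 10 without heterozygous replicate 2, and it was 9 without the 3 libraries high in vomeronasal receptors (2 heterozygous against 3 wild-type mice), with a median of 0.020. A test of any difference among the 3 genotypes gave its lowest adjusted p in edgeR for Basp1, 0.179, followed by Elavl3 at 0.434 and Crmp1 at 0.479. It called 0 of the 10, against 0.0643% of all genes, with 3 at an unadjusted p under 0.05 against 8.45% of all genes. The likelihood ratio test of DESeq2 called Basp1 (adjusted p = 0.00649) and Elavl3 (adjusted p = 0.0328), against 1.01% of the genes it gave an adjusted p.

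**Figure D3:**
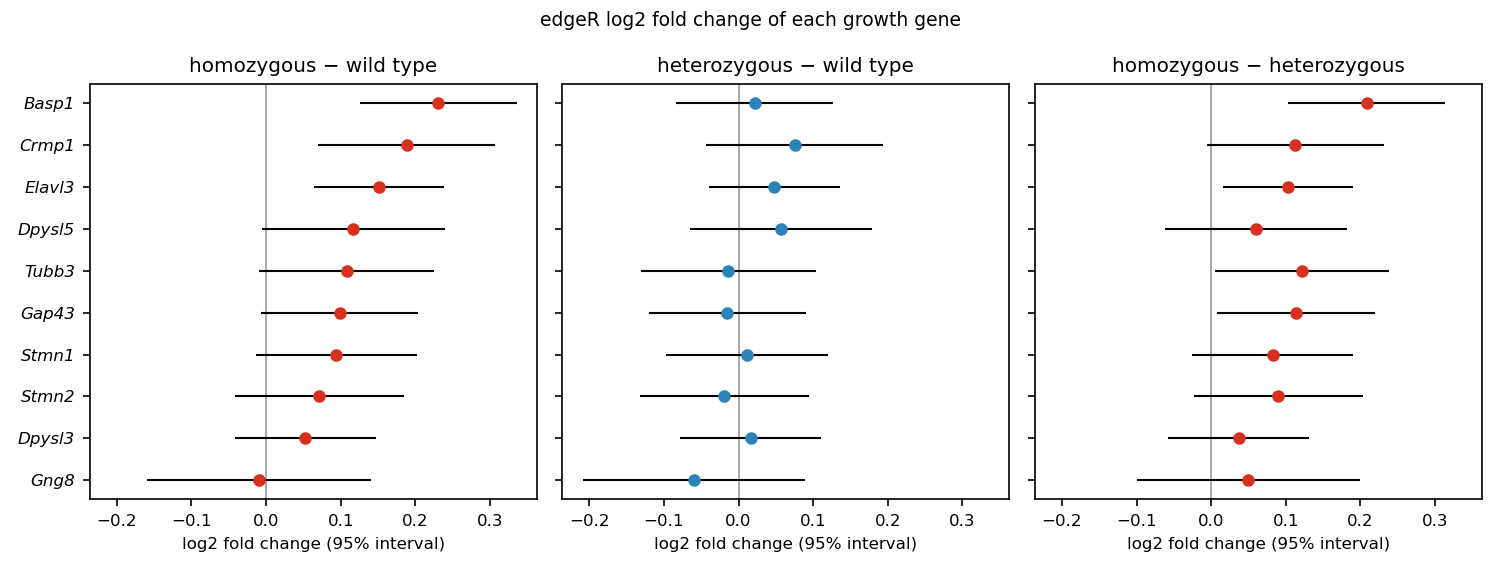
edgeR log2 fold change (horizontal axis) of each growth gene (rows) in the 3 pairs of genotypes (panels), with 95% intervals as bars. In homozygous against wild-type mice the intervals of Basp1, Crmp1 and Elavl3 lie above 0 before adjustment, and in heterozygous against wild-type mice the interval of every growth gene includes 0.

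The level of the growth genes also varied together from mouse to mouse. When each gene was centered on its mean over the 9 libraries, the mean deviation of the 10 genes in log2 CPM was -0.019, -0.029 and -0.074 in the wild-type mice, -0.046, -0.099 and 0.057 in the heterozygous mice and 0.065, 0.050 and 0.096 in the homozygous mice, in replicate order. Heterozygous replicate 3 thus lay with the homozygous mice, and heterozygous replicate 2 lay lowest of all. In homozygous mice 8, 9 and 10 of the genes lay above their own mean, and in wild-type mice 4, 2 and 2. Elavl3 followed the mean of the other 9 genes best, with a Pearson r of 0.90 over the 9 libraries, and Gng8 least, with an r of 0.43 and a Spearman rho of 0.25. The remaining 8 genes had r between 0.72 and 0.88. These correlations share the libraries and their scaling and are given as a description. The coefficient of variation over the 9 mice was smallest for Dpysl3 at 3.56% and largest for Basp1 at 8.69%. For 10 markers of mature OSNs the mean deviation was -0.033, -0.024 and -0.057 in the wild-type mice, in replicate order. It was -0.030, -0.036 and 0.063 in the heterozygous and 0.036, -0.015 and 0.096 in the homozygous mice. Such variation was thus not particular to the growth genes.

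Other genes of growing neurites were described from a list of 22 genes of the growth cone and cytoskeleton. In homozygous against wild-type mice, 20 of the 22 had a log2 fold change above 0 and 2 below, with a median of 0.10, while edgeR called 0 of them. The values ran from -0.28 to 0.20, so that the largest in size was negative. At an unadjusted p under 0.05, 8 were higher and 0 lower, against 4.55% and 4.71% of all genes, and 8 did not overlap between these genotypes, all higher in homozygous mice, against 7.46% of all genes. The smallest p-values were those of Tubb2b, a beta tubulin of developing neurons, with a log2 fold change of 0.15 ± 0.048 (SE; adjusted p = 0.376, edgeR), of Dbn1, which encodes the actin-binding protein drebrin, with 0.17 ± 0.055 (SE; adjusted p = 0.394, edgeR), and of Marcks, a membrane-bound substrate of protein kinase C, with 0.20 ± 0.068 (SE; adjusted p = 0.421, edgeR). In homozygous against heterozygous mice 17 of the 22 lay above 0, with 8 higher and 0 lower at an unadjusted p under 0.05, against 4.22% and 6.2% of all genes. In heterozygous against wild-type mice 12 lay above 0 with none at that level, against 3.25% of all genes in either direction. The median of the related genes was thus close to that of the 10 growth genes in each pair of genotypes.

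Markers of other cells were set beside these values. The 10 markers of mature OSNs also had mostly positive values in homozygous against wild-type mice, 9 of 10 above 0 with a median log2 fold change of 0.083. Of these, Omp, Gnal and Rtp1 had log2 fold changes of 0.12, 0.074 and 0.14. Each was higher at an unadjusted p under 0.05, against 4.55% of all genes, and without overlap, against 7.46%. The summed level of the 10 markers was 8150.2 to 8233.4 CPM in wild-type, 8224.2 to 8807.8 CPM in heterozygous and 8398.0 to 9073.4 CPM in homozygous mice. Heterozygous replicate 3 had the highest level of Omp among the heterozygous mice, 3431.6 CPM. Positive values were thus also found for the genes of the mature stage. The 10 markers of progenitors and of the cell cycle had 4 values above 0 and 6 below, with a median of -0.037, and summed to 595.5 to 649.2 CPM in wild-type and 572.8 to 620.7 CPM in homozygous mice. Of these, 1 (Mki67, -0.13) was lower at an unadjusted p under 0.05 and 0 higher, against 4.71% and 4.55% of all genes. Without overlap 1 (Top2a, -0.080) was lower and 0 higher, against 7.95% and 7.46%.

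In homozygous against wild-type mice, values were mostly negative for connective tissue, respiratory ciliated, sustentacular, horizontal basal and neutrophil markers. Those of ensheathing glia and bulb neurons were not mostly negative. Of 6 connective tissue markers, 5 were below 0 in homozygous against wild-type mice with a median of -0.093. Of these, 3 (Col3a1, Dcn and Pdgfra) were lower at an unadjusted p under 0.05, against 4.71% of all genes, and without overlap, against 7.95%. Against heterozygous mice 6 of 6 were below 0 with a median of -0.15. At an unadjusted p under 0.05, 4 of them were lower, against 6.2% of all genes. Their sums were 11468.2 to 13193.6 CPM in wild-type, 12164.8 to 14342.9 CPM in heterozygous and 11231.2 to 12265.9 CPM in homozygous mice. For 5 markers of respiratory ciliated cells 5 values were below 0 with a median of -0.081 (450.6 to 513.5 CPM in wild-type and 390.8 to 444.1 CPM in homozygous mice). Among them the dynein genes of motile cilia Dnah5 and Dnah9 had log2 fold changes of -0.65 and -0.44, larger in size than that of any growth gene. Both were lower at an unadjusted p under 0.05, against 4.71% of all genes, and without overlap, against 7.95%. Their adjusted p was 0.422 and 0.345 in edgeR. For 6 sustentacular markers 4 were below 0 with a median of -0.027 (6953.6 to 7275.5 CPM and 6808.4 to 7241.1 CPM). Horizontal basal cell markers had 3 of 4 values below 0 and a median of -0.16, ensheathing glia markers 4 of 8 and -0.018, neutrophil markers 5 of 5 and -0.091, and bulb neuron markers 2 of 8 and a median of 0.15. Every marker listed had reads, and edgeR called 0 of the markers in any pair of genotypes. The part of these shifts in the values of the growth genes was not tested.

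**Figure D4:**
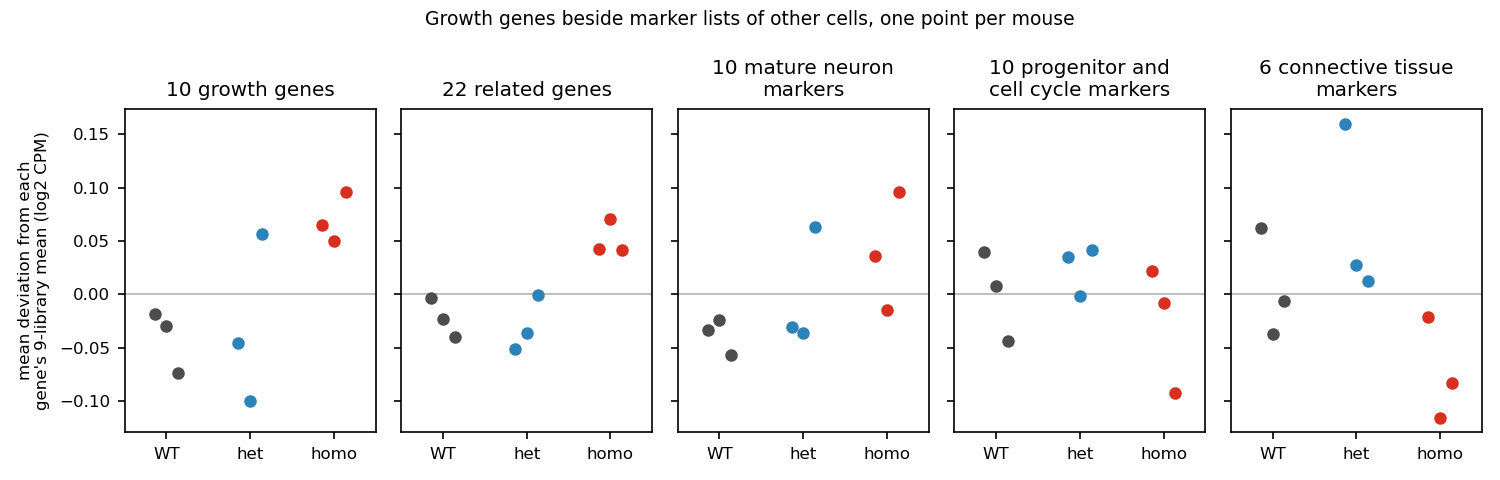
Mean deviation of each list of genes from its 9-library mean in log2 CPM (vertical axis), with 1 point per mouse in wild-type (WT), heterozygous (het) and homozygous (homo) groups (horizontal axis) and 1 panel per list. The 10 growth genes and the 22 related genes lie above 0 in all 3 homozygous mice, mature neuron markers in 2 of them, and the 6 connective tissue markers lie below 0 in all 3.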

How the data were processed

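Per the labels, RNA of whole MOE was extracted with a DNase step and made into polyA-selected, strand-directional libraries. The submitters' processing notes name Trimmomatic 0.36, HISAT2 2.1.0, HTSeq 0.6.1p1 and DESeq2 1.20.0 with the builds GRCm38 and mm10, whereas the methods of the study name featureCounts as the counter. The annotation and the strand setting are not given in the sources used here. The authors deposited raw read counts per gene, used here, and a table of counts normalized with DESeq2, which was not used. The 10 growth genes, the gene lists and the alternatives were chosen with earlier results of these data known.

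Rows that name no gene were left out of library sizes. Such rows held 21.6% to 22.4% of a library's reads for reads in no gene and 16.9% to 19.4% for reads that were not unique, and 57.4% to 60.0% were in genes. The 20213 genes whose counts over all libraries added up to 10 or more were tested with edgeR 4.0.16 in R 4.3.3, using TMM scaling, the quasi-likelihood F test with genotype as the term, all 9 libraries in each fit, and Benjamini-Hochberg adjustment over all genes at 0.05. The SE is the log2 fold change divided by the square root of F, and intervals are 95% intervals from the t distribution with the degrees of freedom of the fit. Sources beyond the label of a mouse were not given. The p-values set differences between genotypes against the spread among these samples, and cannot separate genotype from such unnamed sources. Per-kilobase levels use GENCODE M21, and promoters RefSeq GRCm38.p6. Named genes outside the 10 are, by rule, the 3 related genes with the smallest p in homozygous against wild-type mice, the 5 genes whose profile over the libraries was most similar, and markers needed beside a result. On simulated counts for homozygous against wild-type mice (20073 genes, 200 changed), 81% of changes of 1 in log2 and 54% of changes of 0.5 were recovered, and changes as small as those of the growth genes were not simulated. The alternatives were DESeq2 1.42.0, other scalings and filters, a replicate block, only the 6 libraries compared, vomeronasal receptor level as a covariate or without the 3 libraries high in it, and each library left out in turn.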

Additional observations from a re-analysis of the deposited data

How the results depend on the processing

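edgeR called 0 of the 10 growth genes in each pair of genotypes and for any difference under every alternative fitted with it. DESeq2 called 2 for homozygous against wild-type mice, 2 for any difference and 1 for homozygous against heterozygous mice, a gap between tools of which the cause was not tested. Over all genes DESeq2 called 66, 124 and 122 in these 3 tests, against 10, 13 and 23 by edgeR, and for heterozygous against wild-type mice it called 3, against 1. With only the 6 libraries compared edgeR called 47 genes (homozygous against wild-type), 0 (heterozygous against wild-type) and 11 (homozygous against heterozygous). Without a filter on low counts it called 50 in homozygous against heterozygous mice and 33 for any difference. With the vomeronasal covariate it called 8 and 7 in these, and without the 3 libraries high in vomeronasal receptors 6 in homozygous against heterozygous mice. Leaving out each library gave 8 to 33 genes in homozygous against wild-type, 0 to 1 in heterozygous against wild-type, 7 to 190 in homozygous against heterozygous mice and 7 to 70 for any difference, and 33, 190 and 70 were each reached without heterozygous replicate 3. The median of the growth genes stayed above 0 in homozygous against wild-type mice under every alternative (0.086 to 0.14 when leaving out each library) and ran from 0.071 to 0.15 in homozygous against heterozygous mice.

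Deviations of same-numbered libraries from their group means correlated between -0.16 and 0.30 over 16167 genes. The highest values, 0.25 and 0.30, were those of replicates 2 and 3 in homozygous against heterozygous mice. Differently numbered libraries were not compared, so these values cannot show whether the replicate numbers pair the samples. With the replicate block edgeR called 0 genes in heterozygous against wild-type mice, 41 in homozygous against heterozygous mice and 20 for any difference, and 0 growth genes.

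Of the log2 fold changes of single growth genes under the alternatives, 511 kept direction and side of the threshold, 3 passed the threshold in DESeq2 only (Basp1 in both pairs with homozygous mice, and Elavl3), and 26 changed sign, all within the error of the value. Without the 3 libraries high in vomeronasal receptors the sign changed in heterozygous against wild-type mice for Gap43 (0.0096, and 0.0081 with the covariate), Stmn2 (0.016) and Tubb3 (0.0072), and in homozygous against heterozygous mice for Gng8 (-0.023) and Stmn2 (-0.0082). When leaving out each library it changed in homozygous against wild-type mice for Gng8 (-0.045 to 0.024). In heterozygous against wild-type mice it changed for Gap43 (-0.065 to 0.0092), Gng8 (-0.17 to 0.0056), Dpysl3 (-0.016 to 0.059), Basp1 (-0.0016 to 0.060), Stmn1 (-0.042 to 0.045), Stmn2 (-0.092 to 0.016) and Tubb3 (-0.068 to 0.014), and in homozygous against heterozygous mice for Gng8 (-0.015 to 0.16) and Dpysl3 (-0.0065 to 0.070). With 3 mice per genotype, SEs of 0.041 to 0.070 in log2 limit what can be resolved.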

Other observations

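Among 11526 genes with a mean level of at least 10 CPM outside the growth genes and the marker lists, the mean profile of the 10 growth genes over the 9 libraries was followed most closely by Tesc (Pearson r = 0.974, Spearman rho = 0.983), which encodes the calcium-binding protein tescalcin. Next came a row whose symbol had been turned into the date 5-Sep (r = 0.968), Palm, which encodes the membrane-bound protein paralemmin (r = 0.967), Ccdc92 (r = 0.965) and Syp, which encodes the synaptic vesicle protein synaptophysin (r = 0.964). In homozygous against wild-type mice their log2 fold changes were 0.19, 0.13, 0.16, 0.15 and 0.12, with adjusted p between 0.345 and 0.506 in edgeR. The genes were picked by this likeness, which therefore carries no test.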
